A study of Mus musculus with 6 samples.

Results

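The HoxC cluster is the block of 9 homeobox genes (Hoxc4, Hoxc5, Hoxc6, Hoxc8, Hoxc9, Hoxc10, Hoxc11, Hoxc12 and Hoxc13) that lies on mouse chromosome 15. The 9 genes were chosen by name, with measured values already known: Hox genes as a family had been higher in the libraries labelled conditional knockout (cKO) in an earlier analysis of the same table. The values that made the family of interest are therefore the differences between the labelled groups, and for the HoxC genes these differences, their standard errors and their adjusted p-values are given as a description and support nothing further. Of the 9 genes, 8 were rows of the table of 17025 genes, and Hoxc12 was not analysed here. RNA-seq had been done on integrin α6-positive epidermal progenitor cells sorted by flow cytometry from mice at postnatal day 0. The 3 libraries labelled control came from K14Cre,Ash2lF/+ mice, which carry 1 floxed and 1 intact allele of Ash2l, and the 3 labelled cKO from K14Cre,Ash2lF/F mice, in which both alleles are floxed. All 6 carry K14Cre, a recombinase under the keratin 14 promoter that acts in basal keratinocytes and their progeny and is not meant for the other cell types of skin. ASH2L is a core subunit of the complexes that methylate histone H3 at lysine 4.

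Hox genes encode transcription factors that bind DNA through a homeodomain and give cells their position along the body axis. The order of the genes along a cluster matches the order of their expression domains: genes at the 3′ end (Hoxc4) are expressed from anterior levels on, and genes at the 5′ end (Hoxc13) posteriorly. Trithorax-group complexes that contain ASH2L and the opposing Polycomb complexes are known for keeping Hox genes on and off. In skin, dermal fibroblasts are known to keep a Hox code of their body site, and Hoxc13 departs from the positional rule: it is expressed in hair follicles over the whole body and is needed for the hair shaft and nails.

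Members of the cluster are most alike in the homeobox, where reads could be shared between them. The longest identical run between the transcripts of any pair of the 9 genes was 22 bases, between Hoxc8 and Hoxc9, for 1 GENCODE M21 transcript per gene (build GRCm38). In that annotation the gene model of Hoxc5 runs over those of Hoxc6, Hoxc8 and Hoxc9 and most of Hoxc10. How the authors' counting treated fragments in such overlaps is not given in the sources used here, so the division of fragments between these neighbours is uncertain.

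The libraries held 31578875 to 36027550 fragments. Expression was given as FPKM, fragments scaled to gene length and library size. This does not by itself put the libraries on an equal footing. Median-of-ratios scale factors of the FPKM values ran from 0.832 in cKO 3 to 1.12 in control 3, and the main fit did not apply them. The targeted gene went against the labels: the mean level of Ash2l was 15.5 FPKM under the label control and 27.8 FPKM under the label cKO (n = 3 each). On the log2 scale this is 0.81 with an SE of 0.19 (adjusted p from limma = 0.0240). The adjusted p was 0.0560 without control 1, 0.0665 without control 3, 0.0829 without cKO 1 and 0.0810 without cKO 2. Values summed over a gene leave unseen whether the floxed part is missing, and the groups are named below by their labels. Markers of basal keratinocytes, the labelled cell type, were present: all 8 were above 0 in every library, and they summed to 4896 to 8538 FPKM with the label control and 8021 to 10461 FPKM with the label cKO, mostly from the keratins Krt5, Krt14 and Krt15. Of the 8, Krt15 was called higher (2.23, limma adjusted p = 0.00215) and the integrin gene Itgb4 lower (-1.70, limma adjusted p = 0.0437). Itga6, which encodes the antigen used for sorting, averaged 104 and 42.1 FPKM without overlap of the groups (-1.32, limma adjusted p = 0.0710). Marker levels of several further cell types were unequal. Every one of 10 melanocyte markers was called lower with the label cKO (sums of 3003 to 3433 and of 182 to 403 FPKM), and 4 of 6 spinous keratinocyte markers were called higher (sums of 4575 to 6431 and of 34624 to 67947 FPKM). Of 7 Schwann cell markers, 1 of the 4 tested was called lower (sums of 121 to 151 and of 71.7 to 95.7 FPKM), and none of these melanocyte, spinous or Schwann markers was at 0 in any library. Immune, endothelial and muscle markers summed to at most 7.98 FPKM in any library and Merkel cell markers to 8.95 to 20.9 FPKM, and most of those other than Merkel cell markers were too low to test. Of the 1 of 7 immune, 2 of 6 endothelial, 0 of 5 muscle and 5 of 5 Merkel cell markers tested, limma called 0 (1 Merkel marker lower at an unadjusted p under 0.05, none by limma-voom). The part of these cell types in the HoxC values was not tested. In such bulk libraries more or fewer cells of a type cannot be told apart from more or less RNA per cell.

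All HoxC genes were expressed at a low level. Summed over the 8 genes, the libraries labelled control 1, 2 and 3 held 3.00, 11.03 and 16.1 FPKM, and those labelled cKO 1, 2 and 3 held 26.8, 28.8 and 12.3 FPKM. The sums of the groups overlapped, since cKO 3 lay below control 3. Hoxc8 had the highest level of the cluster in each of the 6 libraries, with 27.0 to 47.2% of the summed HoxC FPKM. Hoxc11 had the lowest level or shared it in each.

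**Figure D1:**
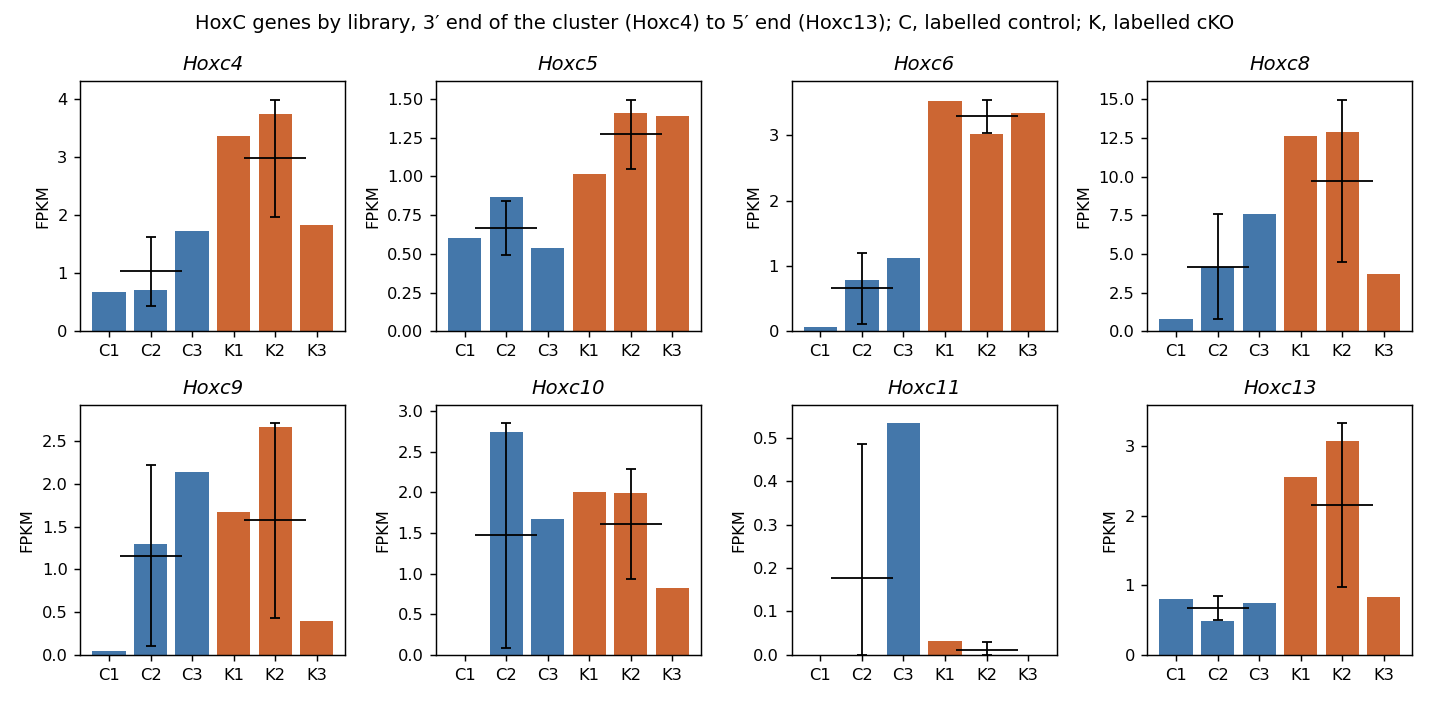
FPKM of the 8 HoxC genes (vertical axes from 0, a scale of its own for each gene) in the libraries labelled control 1 to 3 (C1 to C3) and cKO 1 to 3 (K1 to K3). Horizontal lines and whiskers are the group mean and SD (n = 3, whiskers stopped at 0). Hoxc4, Hoxc5, Hoxc6 and Hoxc13 do not overlap between the groups. Hoxc4, Hoxc8, Hoxc9 and Hoxc10 are lowest in C1 and, among K1 to K3, in K3.

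Genes at the 3′ end of the cluster, Hoxc4, Hoxc5 and Hoxc6, stood higher in every library labelled cKO than in any labelled control. Hoxc6, which is known for thoracic identity, had 0.0616, 0.785 and 1.13 FPKM in control 1, 2 and 3 and 3.52, 3.02 and 3.34 FPKM in cKO 1, 2 and 3. The libraries labelled cKO were thus close to each other, and control 1 stood far below control 2 and 3. These values rest on 6, 80 and 114 fragments in control 1, 2 and 3 and on 317 to 371 in those labelled cKO. The mean rose from 0.658 ± 0.544 to 3.29 ± 0.254 FPKM (SD, n = 3 per group), 5.01-fold, with a log2 difference of 1.43 (SE 0.29, limma adjusted p = 0.0148). The call was lost without cKO 1 (adjusted p = 0.0523) and with a pseudocount of 0.01 (adjusted p = 0.0731), among 18 alternatives.

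Hoxc4, the 3′-most gene, had 0.671, 0.711 and 1.72 FPKM in control 1, 2 and 3. It had 3.37, 3.75 and 1.84 FPKM in cKO 1, 2 and 3. The groups did not overlap, but cKO 3 and control 3 were nearly equal. The means were 1.03 ± 0.595 and 2.98 ± 1.01 FPKM (SD, n = 3 per group), with a log2 difference of 0.97 (SE 0.30, limma adjusted p = 0.0582), which did not pass the threshold of 0.05. It passed in 7 of 18 alternatives, among them median-of-ratios scaling (1.10, adjusted p = 0.0302) and leaving out cKO 3 (1.20, adjusted p = 0.0312).

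Hoxc5, between them, stood at 0.603, 0.864 and 0.536 FPKM in control 1, 2 and 3 and at 1.01, 1.41 and 1.39 FPKM in cKO 1, 2 and 3. Its groups did not overlap, but control 2 and cKO 1 lay nearer to each other than the lowest and highest libraries within either group. Its mean over all libraries, 0.970 FPKM, lay just under the minimum of 1 FPKM for testing. With the filter lowered to 0.1 FPKM the log2 difference of 0.45 (SE 0.18) did not pass (limma adjusted p = 0.133).

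Hoxc8, in the middle of the cluster and also tied to thoracic identity, varied widely between libraries of a group. It had 0.808, 4.15 and 7.58 FPKM in control 1, 2 and 3 (61, 328 and 594 fragments). It had 12.6, 12.9 and 3.69 FPKM in cKO 1, 2 and 3 (1016, 1050 and 318 fragments). The libraries labelled cKO 1 and 2 were the highest, while cKO 3 lay below control 2 and 3, so the groups overlapped. The log2 difference of 1.16 (SE 0.62) did not pass (limma adjusted p = 0.227). It passed in 3 of 18 alternatives: array weights (1.24, adjusted p = 0.0196), the fit on the 4 libraries control 2, control 3, cKO 1 and cKO 2 (1.05, adjusted p = 0.0279), and a fit with fibroblast markers as a covariate, described below. Without control 1 it was 0.53 (adjusted p = 0.511).

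Hoxc9 and Hoxc10, which are known for expression from the posterior thorax to the lumbar level and hind limb, had differences between the groups that were smaller than the spread of the libraries. Hoxc9 had 0.0461, 1.30 and 2.14 FPKM in control 1, 2 and 3 and 1.67, 2.66 and 0.394 FPKM in cKO 1, 2 and 3. Its log2 difference was 0.28 (SE 0.49, limma adjusted p = 0.715). Hoxc10 had 0 fragments in control 1, which allows up to 0.0496 FPKM at 3 fragments (counting error only), then 2.73 and 1.67 FPKM in control 2 and 3. In cKO 1, 2 and 3 it had 2.00, 2.00 and 0.827 FPKM. Its log2 difference was 0.24 (SE 0.49, limma adjusted p = 0.758), and it turned to -0.31 without control 1. For both genes control 1 and cKO 3 were the lowest libraries of their groups, and the other 4 libraries spanned 1.30 to 2.66 FPKM for Hoxc9 and 1.67 to 2.73 FPKM for Hoxc10.

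At the 5′ end, Hoxc11 was near the limit of detection. It was listed at 0 in control 1, control 2, cKO 2 and cKO 3, at 0.533 FPKM in control 3 (at least 16 fragments) and at 0.0325 FPKM in cKO 1 (at least 1 fragment). No fold is given for it. Hoxc13, the hair follicle gene, had 0.807, 0.485 and 0.739 FPKM in control 1, 2 and 3 and 2.55, 3.08 and 0.833 FPKM in cKO 1, 2 and 3. The groups did not overlap, yet cKO 3 stood only just above control 1, and the separation lay in cKO 1 and 2. The log2 difference was 0.84 (SE 0.33, limma adjusted p = 0.115). Without cKO 3 it was 1.19 (adjusted p = 0.0166), and without cKO 2 it was 0.61 (adjusted p = 0.315).

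In all, 6 HoxC genes passed the filter and 1 of them, Hoxc6, was called higher, against 5.87% of the 11603 genes tested. None was called lower by limma, against 13.6% of all genes; at an unadjusted p under 0.05 there were 3 higher and 0 lower, and limma-voom on recovered fragments called 2 higher and 0 lower. The groups did not overlap, with all libraries labelled cKO on the higher side, for 3 of the 6, against 12.0% of all genes. Since the genes were picked with this contrast in view, nothing is read from these shares. The median log2 difference of the 6 was 0.90, beside -0.17 for all genes tested. Hoxc6 and Hoxc13 averaged 0.658 and 0.677 FPKM under the label control and passed the filter only through the libraries labelled cKO. Hoxc5 (0.45) and Hoxc11 did not pass it. The counts and the median of the 6 thus depend partly on the filter. Scaling by the median of ratios moved the median of all genes to 0.03 and the calls to 2. The count was 0 without cKO 1, 3 without cKO 3, and 4 on the libraries control 2, control 3, cKO 1 and cKO 2.

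The balance between the ends of the cluster differed between the groups. The mean log2(FPKM + 1) of the 3′ genes Hoxc4, Hoxc5 and Hoxc6 was 0.50, 0.84 and 1.05 in control 1, 2 and 3 and 1.77, 1.84 and 1.63 in cKO 1, 2 and 3. That of the 5′ genes Hoxc10, Hoxc11 and Hoxc13 was 0.28, 0.82 and 0.94 in control 1, 2 and 3 and 1.15, 1.20 and 0.58 in cKO 1, 2 and 3. The 3′ means thus separated the groups and the 5′ means did not. The 5′ genes were not alike, however. Hoxc13, the 5′-most, did not overlap between the groups (log2 difference 0.84, beside 0.97 for Hoxc4 and 0.45 for Hoxc5). Hoxc10 (0.24) and Hoxc11, mostly at 0, did overlap. Subtracting the 3′ from the 5′ mean within each library gave -0.22, -0.01 and -0.11 in control 1, 2 and 3 and -0.62, -0.64 and -1.05 in cKO 1, 2 and 3. Every library labelled cKO was further toward the 3′ end than any labelled control, and the group means of this log2 balance were -0.11 ± 0.10 and -0.77 ± 0.24 (SD, n = 3 per group). With a pseudocount of 0.1 the balance was -1.09, -0.69 and -0.20 in control 1, 2 and 3 and -1.41, -1.59 and -2.28 in cKO 1, 2 and 3. The groups again did not overlap. With a pseudocount of 0.01 they did overlap, since control 1, where Hoxc10 and Hoxc11 were at 0, then lay below cKO 1 and 2. No p is given for this score, since its members were chosen with the values known.

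**Figure D2:**
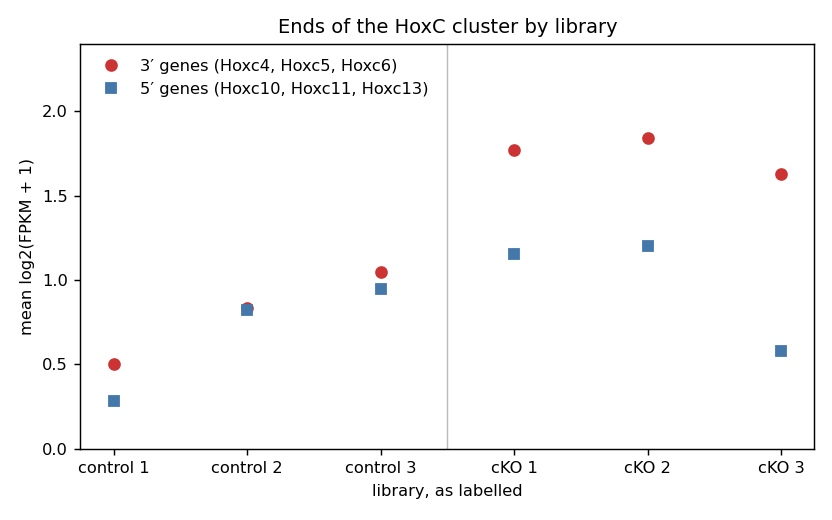
Mean log2(FPKM + 1), vertical axis, of the 3′ HoxC genes (circles) and the 5′ HoxC genes (squares) in each library, as labelled. The circles lie at 0.50 to 1.05 in the libraries labelled control and at 1.63 to 1.84 in those labelled cKO, while the squares overlap.

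Values of the other Hox clusters are set beside HoxC here by position, without a test of the difference between clusters or positions. Groups 1 to 3, which HoxC lacks, are not summarised here. Genes of different clusters at the same position form a paralogue group and bear the same number. In groups 4 to 8, 14 genes were tested: HoxC had 1 of 3 called higher, HoxA 3 of 4, HoxB 5 of 5 and HoxD 1 of 2. Of all genes tested, 5.87% were called higher and 13.6% lower. The median log2 difference over the 14 was 1.61. Hoxc6, Hoxa6, Hoxb5, Hoxb6, Hoxb7, Hoxb8 and Hoxd8 averaged 0.420 to 0.834 FPKM under the label control. They passed the filter of 1 FPKM only through the libraries labelled cKO, so these calls and medians depend partly on the filter. Of the tested genes of groups 9 to 13, this held only for Hoxc13 (0.677 FPKM). In groups 9 to 13, 5 genes were tested (Hoxc9, Hoxc10, Hoxc13, Hoxa9 and Hoxb9), and limma called 0 in either direction; their median was 0.24. Of these HoxA and HoxB had 1 each and HoxD 0, so beyond group 8 the other clusters are hardly covered. At an equal position, Hoxc6 (1.43) lay below Hoxa6 (1.98, SE 0.24) and Hoxb6 (2.10, SE 0.22), and Hoxc8 (1.16) below Hoxb8 (1.79, SE 0.20) and Hoxd8 (2.11, SE 0.34). Hoxc4 (0.97) lay between Hoxa4 (0.37, SE 0.32) and Hoxd4 (1.37, SE 0.47), near Hoxb4 (0.93, SE 0.26). In group 9 the order was the other way: Hoxc9 (0.28) lay above Hoxa9 (0.05, SE 0.69) and Hoxb9 (-1.04, SE 0.49). The differences between these paralogues were not tested.

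**Figure D3:**
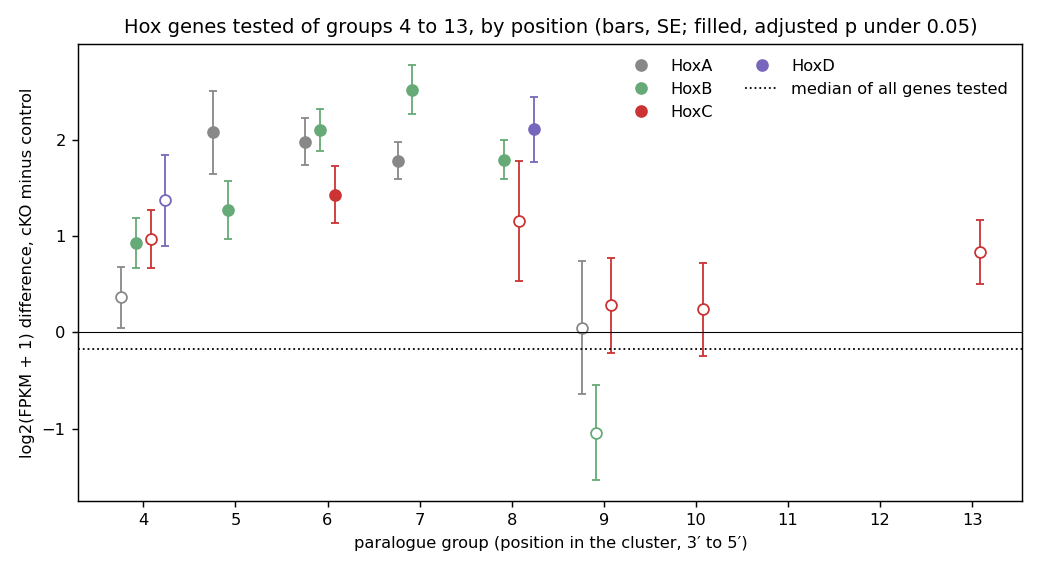
Difference in log2(FPKM + 1) between the libraries labelled cKO and control (vertical axis, bars are SE) for each Hox gene tested of paralogue groups 4 to 13 (horizontal axis, 3′ to 5′). Filled points had a limma adjusted p under 0.05. HoxC points range from 0.24 for Hoxc10 to 1.43 for Hoxc6, and no gene of groups 9 to 13 is filled.

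Further called genes of the other clusters were Hoxa5 (2.08), Hoxa7 (1.78), Hoxb2 (1.40), Hoxb3 (1.18), Hoxb5 (1.27) and Hoxb7 (2.52), all higher in the libraries labelled cKO. Genes of group 9 elsewhere were also lowest in control 1 and cKO 3, as Hoxc4, Hoxc8, Hoxc9 and Hoxc10 were. Hoxa9 had 0.177, 5.02 and 5.54 FPKM in control 1, 2 and 3 and 3.96, 4.28 and 0.971 FPKM in cKO 1, 2 and 3, and Hoxb9 had 4.38, 15.9 and 10.2 FPKM and then 4.53, 6.63 and 1.77 FPKM. Of the 5 tested genes of groups 9 to 13, control 1 and cKO 3 were both the lowest of their groups in 4, all but Hoxc13. In groups 4 to 8 this was so for 4 of the 14 tested genes, Hoxc4 and Hoxc8 among them. Over all 11603 genes tested this was so for 29.96%, cKO 3 alone being the lowest of its group for 60.1%.

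The mean level of fibroblast markers, which mark dermal cells, moved across the libraries in nearly the same order as Hoxc8. The mean log2(FPKM + 1) of 15 markers was 3.63, 4.41 and 5.17 in control 1, 2 and 3 and 5.31, 5.10 and 3.66 in cKO 1, 2 and 3, so control 1 and cKO 3 were the lowest there too. Twist2, a transcription factor of dermal fibroblasts, had 0, 4.06 and 8.15 FPKM in control 1, 2 and 3 and 9.51, 10.3 and 2.99 FPKM in cKO 1, 2 and 3. It was the marker at 0 in control 1, and no fibroblast marker was at 0 elsewhere. Single markers did not all keep the order of the mean. Control 1 was the lowest control for every marker but Dcn and Thy1, which were highest there. Dcn had 48.7, 21.6 and 33.9 FPKM in control 1, 2 and 3. Dpt (-0.87), Pdgfra (-0.51) and Vim were the markers with a negative log2 difference. The markers summed to 1263 to 1999 FPKM under the label control and to 357 to 1222 FPKM under the label cKO, of which Vim, also abundant in other cells, gave 1085 to 1502 FPKM and 112 to 475 FPKM. Of the 15, limma called 0 higher and 1, Vim, lower (1 higher and 1 lower at an unadjusted p under 0.05; 0 and 1 by limma-voom). Hoxc6 rose with the marker mean over control 1, 2 and 3 but departed from this order in cKO 3. That library, low in fibroblast markers, had 3.34 FPKM of Hoxc6, level with cKO 1 and 2. With the marker mean as a covariate, in a fit with 3 residual degrees of freedom, Hoxc6 stood at 1.35 (limma adjusted p = 0.00948), Hoxc4 at 0.85 (adjusted p = 0.0200) and Hoxc8 at 0.82 (adjusted p = 0.0289), all called. In the same fit Hoxc13 was at 0.73 (adjusted p = 0.0838), Hoxc9 at 0.04 (adjusted p = 0.917) and Hoxc10 at 0.05 (adjusted p = 0.925). The part of fibroblasts in the HoxC values was not tested.

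**Figure D4:**
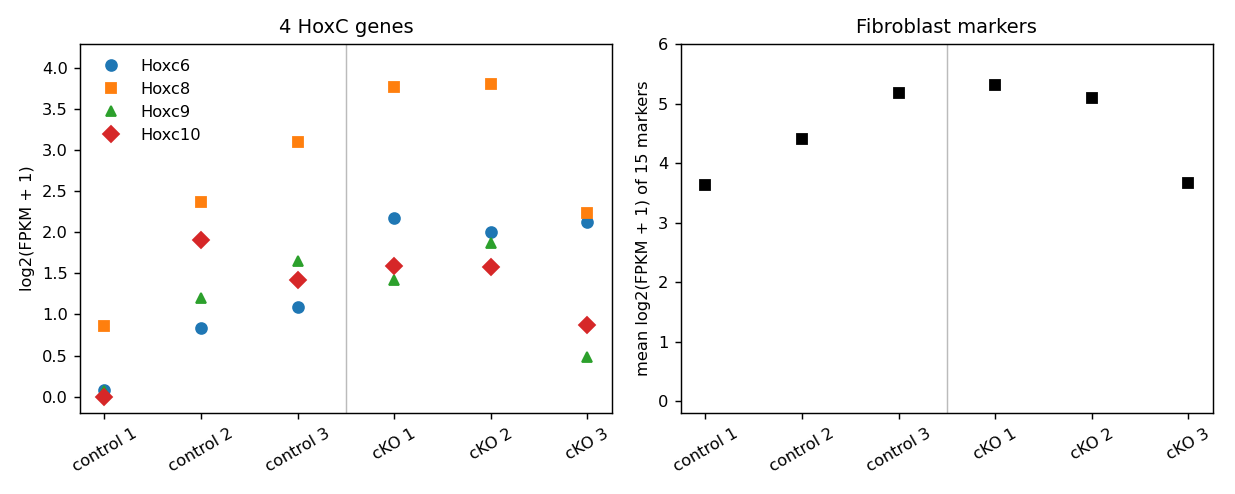
Left, log2(FPKM + 1) of Hoxc6, Hoxc8, Hoxc9 and Hoxc10 in each library; right, the mean log2(FPKM + 1) of 15 fibroblast markers. Control 1 and cKO 3 are the lowest of their groups for the markers (3.63 and 3.66) and for Hoxc8, Hoxc9 and Hoxc10, while Hoxc6 in cKO 3 is level with cKO 1 and 2.

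Genes around the cluster were looked at next. Of the 10 nearest protein-coding neighbours in the table, 5 on each side, 9 were tested and limma called 0 higher and 0 lower (none either at an unadjusted p under 0.05 or by limma-voom). Their median log2 difference was -0.04. On the side of Hoxc13, Calcoco1, a nuclear receptor coactivator gene, was at -0.46 (SE 0.29), Atp5g2, an ATP synthase subunit gene, at 0.18 (SE 0.15), Atf7 at -0.19 (SE 0.16), Npff at 0.67 (SE 0.38) and Tarbp2 at -0.11 (SE 0.20). On the side of Hoxc4, the DNA repair gene Smug1 was at 0.13 (SE 0.18), the heterochromatin protein gene Cbx5 at -0.04 (SE 0.21), Hnrnpa1 at 0.07 (SE 0.13) and Copz1 at -0.18 (SE 0.12). Copz1 was the 1 neighbour whose groups did not overlap, with each library labelled cKO below each labelled control. In size, the differences of Npff and Calcoco1 exceeded those of Hoxc9 and Hoxc10. Gpr84 was too low to test, with 0 to 1.19 FPKM. The RNAs Hotair, Mir196a-2 and Mir615, transcribed from within the cluster, were not analysed here.

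HOX proteins bind DNA together with cofactors of the TALE class (Pbx, Meis and Pknox). Of 9 cofactor genes 8 were tested and limma called 0 in either direction (none at an unadjusted p under 0.05, none by limma-voom). Pbx2, the most abundant, had 16.4, 16.8 and 20.1 FPKM in control 1, 2 and 3 and 22.2, 25.4 and 19.1 FPKM in cKO 1, 2 and 3 (log2 difference 0.30, SE 0.16, limma adjusted p = 0.228). Its groups overlapped.

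HOXC13 is known for its part in the expression of hair keratins and of Foxn1 and Foxq1. Of 18 such genes 14 were rows of the table, 7 were tested, 0 were called higher and 2 lower. Krt32, a keratin of the hair cuticle, had 13.4, 23.4 and 22.0 FPKM in control 1, 2 and 3 and 6.43, 5.34 and 12.4 FPKM in cKO 1, 2 and 3 (-1.23, SE 0.32, limma adjusted p = 0.0359). Krt31, a keratin of the hair cortex, fell from 2.35 to 3.83 FPKM down to 0.334 to 1.24 FPKM (-1.15, SE 0.27, limma adjusted p = 0.0254). The libraries highest in Hoxc13, cKO 1 and 2, were the lowest in Krt32. They were the highest in Krt35, another keratin of the hair cortex, which had 0.276, 0.562 and 2.60 FPKM in control 1, 2 and 3 and 3.99, 5.24 and 0.467 FPKM in cKO 1, 2 and 3 (0.89, SE 0.60, limma adjusted p = 0.329). Neither gene was called by limma-voom, and without control 2 or cKO 2 no gene of the lists of other genes was called lower.

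Across the 6 libraries, 5 of 8313 genes averaging 5 FPKM or more were the most like the HoxC profile, taken as the mean log2(FPKM + 1) of the 6 tested members. They were Lrrc15 (Pearson r = 0.996), Cd24a (r = 0.996), Lrrc17 (r = 0.994), Amer1 (r = 0.992) and Zc3hav1l (r = 0.991), each picked as a maximum over many genes. The profile itself was 0.43, 1.27 and 1.58 in control 1, 2 and 3 and 2.15, 2.26 and 1.35 in cKO 1, 2 and 3. Lrrc15, which encodes a leucine-rich repeat membrane protein, had 2.30, 8.65 and 12.0 FPKM in control 1, 2 and 3 and 30.3, 30.6 and 8.21 FPKM in cKO 1, 2 and 3. Cd24a, a surface glycoprotein gene, had 81.9, 155 and 203 FPKM and then 329, 332 and 151 FPKM. Of the 5 genes limma called none between the groups (adjusted p of 0.130 to 0.338).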

How the data were processed

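Gene expression came from 1 table of FPKM values for the 6 libraries, deposited by the authors. Per the submitters' processing notes, fastp, HISAT2 and HTSeq and the build GRCm39 were used. The tool versions, annotation, gene filter and strand setting were not given in the sources used here. FPKM steps of low genes gave back whole fragments for 17024 of 17025 genes, from which library totals were taken.

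Differences, cKO minus control as labelled, were fitted on log2(FPKM + 1) with limma 3.58.1 (R 4.3.3; with a mean-variance trend) for 11603 genes averaging 1 FPKM or more, with Benjamini-Hochberg adjustment over all of them and a threshold of 0.05. Fold changes on this scale understate those of low genes. The labels do not say that libraries came from separate animals, so p-values measure only the spread between these libraries. The HoxC genes and all lists were chosen with earlier results of these data known. Named genes were every member, the called genes of the lists, a cofactor by mean level and the locus neighbours. The 5 genes most like the HoxC profile were also named. Twist2, Dcn, Thy1, Dpt, Pdgfra, Krt35, Foxq1, Foxn1, Hoxa9, Hoxb9, Hoxa4 and Hoxd4 were added after their values were seen. Some items the rule names are not reported here. Replicate numbers were not used to pair the libraries in the main fit. The fit was also run on simulated data with the same spread setting for every gene and no outlying library. That run does not cover the spread between libraries seen here. Alternatives numbered 18, of which 3 were chosen after seeing the data. Intervals from counting cover counting error only.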

Additional observations from a re-analysis of the deposited data

How the results depend on the processing

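The count of HoxC genes called higher, 1 of 6, became 0 with a pseudocount of 0.01, 2 with scaling by the median of ratios, 2 with TMM scaling and 4 with array weights, and ranged from 0 to 3 when each library was left out in turn. Chosen after seeing the data, limma-voom on recovered fragments gave 2, the 4 libraries control 2, control 3, cKO 1 and cKO 2 gave 4, and the fibroblast marker covariate gave 3. None was called lower in any of the 18. The median HoxC log2 difference, 0.90, was 1.42 with a pseudocount of 0.1, 1.56 with 0.01 and 1.76 with limma-voom, and 0.69 to 1.19 with a library left out. The 5′ minus 3′ difference between groups, -0.65, was -1.10 with a pseudocount of 0.1 and -1.08 with 0.01, where the libraries of the groups overlapped. Hoxc10 turned to -0.31 without control 1 (range to 0.64 with a library left out) and to -0.075 on the 4 libraries, and Hoxc9 to -0.17 without control 1 and -0.025 without cKO 2 (range to 0.67). In the other lists, 12 genes were called higher (8 to 14 with a library left out) and 2 lower: 1 with the median of ratios, 1 with TMM, 4 with array weights, 0 with limma-voom, 5 on the 4 libraries and 0 to 2 with a library left out. The cause was not tested.

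Deviations of same-numbered libraries correlated at -0.31, 0.08 and -0.26, and no library correlated best with its own number. The labels give no pairing, and with so few libraries these correlations cannot decide it. With a replicate block, 1 HoxC gene was called higher (Hoxc6, 1.43, limma adjusted p = 0.0416), the other lists had 9 higher and 2 lower, and Ash2l had 0.81 (adjusted p = 0.0613). Without control 1, Ash2l was at 0.67. Low levels limit precision: Hoxc6 in control 1 rests on 6 fragments, Hoxc9 on 4 and Hoxc10 on 0.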
